A study of Mus musculus with 6 samples.

Results

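The endocardial cushion and valve mesenchyme genes described here are Snai1, Snai2, Twist1, Msx1, Msx2, Nfatc1, Has2, Vcan, Postn and Hapln1, a set of 10 genes chosen by name for their roles in valve formation. Earlier results of these data were known at that choice, so called shares among them are not an independent comparison with the array. On the array the 10 genes are measured by 28 probe sets whose annotation names exactly 1 gene, among 18193 genes and 45037 non-control probe sets in all. A probe set is a group of short probes against one stretch of an mRNA, and its value here is a signal on the log2 scale. Values come from 6 arrays of whole hearts of C57BL/6 mouse embryos at E12.5, 3 labelled wildtype and 3 labelled Rhau KO. The gene symbol now used for Rhau is Dhx36; it encodes a DEAH-box helicase that opens G-quadruplexes, stacked structures formed by guanine-rich nucleic acids. Which exons were deleted, in which cells and by what Cre driver is not stated in the labels. The comparison is between arrays of these 2 labels.

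Heart valves arise from the endocardial cushions, swellings of the inner heart wall at the atrioventricular canal and the outflow tract. There the myocardium signals to the endocardium through BMP and TGF-beta ligands, and Notch acts within the endocardium. Some endocardial cells then lose their junctions under repressors such as Snai1 and Snai2 and migrate as mesenchyme into a swollen matrix of hyaluronan, which Has2 synthesises, bound to the proteoglycan versican, the product of Vcan, and stabilised by the link protein Hapln1. Twist1, Msx1 and Msx2 act in the cushion mesenchyme, Nfatc1 marks the endocardial cells that stay behind and is needed for valve growth, and periostin, from Postn, matures the valve matrix.

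The direction of every comparison rests on labels that the targeted gene went against. All 3 Dhx36 probe sets were higher in the arrays labelled Rhau KO, by between 0.90 and 1.41 on the log2 scale, and on each of them the groups did not overlap. Probe sets that miss the deleted exons could not check the labels. Were the labels swapped, every direction given here would be reversed, and this was not tested. Groups are therefore called by their labels throughout. Sex-linked transcripts also differed. Mean Y-linked signal, with the top array set to 100%, ran from 1.23% to 39.3% in wildtype-labelled arrays and from 59.6% to 100% in the others. In 3 arrays, namely wildtype-labelled replicate 3 and Rhau KO replicates 1 and 2, a Y-linked signal of at least 39.3% was present together with Xist, which read 12.37 to 13.47 there. Each array had been scaled to the same mean level, but array medians followed the label. They lay between 6.68 and 6.74 under the wildtype label and between 6.75 and 6.80 under the Rhau KO label. Median centring, an alternative used below, removes this offset. That replicates are separate hearts is stated by the series text alone. Whether the arrays with both signals hold tissue of both sexes was not tested, so every SD here is a spread between arrays. Precision is limited by having 3 arrays a group.

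Vcan and Hapln1 are the members whose probe sets passed the test below, and their promoter sequences are shown with that of Twist1, which did not pass but shares the feature marked. RefSeq promoter windows on build GRCm38.p6 matched 7 of the 10 genes, Postn with a pair of starts, while Snai2, Nfatc1 and Has2 had no entry. Each window here is the 250 bases before a transcription start, 5' to 3' on the gene's own strand. Capitals mark matches to a G-quadruplex pattern, 4 runs of GGG separated by 1 to 7 bases of any kind, searched on both strands. Hapln1 lies at chr13:89540386-89540635 on the plus strand, and its match is on the opposite strand. Vcan lies at chr13:89742513-89742762 on the minus strand, and Twist1 at chr12:33957421-33957670 on the plus strand, both with matches on the strand shown. The Vcan window lies inside the gene's annotated span (89655309 to 89743027), so its marked stretch is not upstream of the outermost annotated start. That of Hapln1 runs past the annotated gene start at 89540529, and its marked stretch lies beyond that start, inside the annotated gene.
Vcan: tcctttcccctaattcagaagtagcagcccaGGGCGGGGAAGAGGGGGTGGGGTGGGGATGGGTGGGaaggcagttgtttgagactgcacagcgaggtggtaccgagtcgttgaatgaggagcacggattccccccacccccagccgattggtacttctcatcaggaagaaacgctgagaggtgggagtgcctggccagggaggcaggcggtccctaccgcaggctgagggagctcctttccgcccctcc
Hapln1: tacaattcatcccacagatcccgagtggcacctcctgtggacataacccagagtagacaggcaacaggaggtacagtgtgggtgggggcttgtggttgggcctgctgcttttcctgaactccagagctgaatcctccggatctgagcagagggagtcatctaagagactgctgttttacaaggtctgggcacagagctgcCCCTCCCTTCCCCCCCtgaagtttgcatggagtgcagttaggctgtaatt
Twist1: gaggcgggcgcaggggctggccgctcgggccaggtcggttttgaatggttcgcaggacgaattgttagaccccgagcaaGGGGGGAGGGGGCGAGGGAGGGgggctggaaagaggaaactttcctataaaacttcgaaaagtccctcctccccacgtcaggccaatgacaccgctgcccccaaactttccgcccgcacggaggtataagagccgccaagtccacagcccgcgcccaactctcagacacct
The windows of these 3 genes held the pattern and those of the other 4 matched genes did not, whereas 16.6% of all 32851 windows in the table hold it. The sequence CAGGTG, the E-box that Snail-type repressors bind, was searched on both strands and was present before Snai1 and Msx1 only among the 7 genes, against 17.2% of all windows. These matches describe the letters and show neither binding nor a structure. Hapln1 and Vcan are direct neighbours among the protein-coding genes of the chromosome.

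Of the 28 probe sets, 21 had a mean signal above the lowest 40% of the array (5.90 on the log2 scale) and were tested with limma over 27022 probe sets, and each of the 10 genes kept at least 1. After Benjamini-Hochberg adjustment with a threshold of 0.05, 3 of the 21 were called higher in the arrays labelled Rhau KO, 0 lower, and 18 did not pass. These are 2 probe sets of Vcan and 1 of Hapln1. Of all tested probe sets 13.6% were called, 6.75% as higher and 6.88% as lower, so the total share among the cushion genes was close to that of the array. At an unadjusted p under 0.05, 6 of the 21 member probe sets were higher and 0 lower, beside 16.3% and 12.6% of all tested probe sets. Groups did not overlap for 6 of the 21, against 33.9% of all tested probe sets. The median difference, labelled Rhau KO minus labelled wildtype, was 0.08 over the 21 and 0.04 over all tested.

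**Figure D1:**
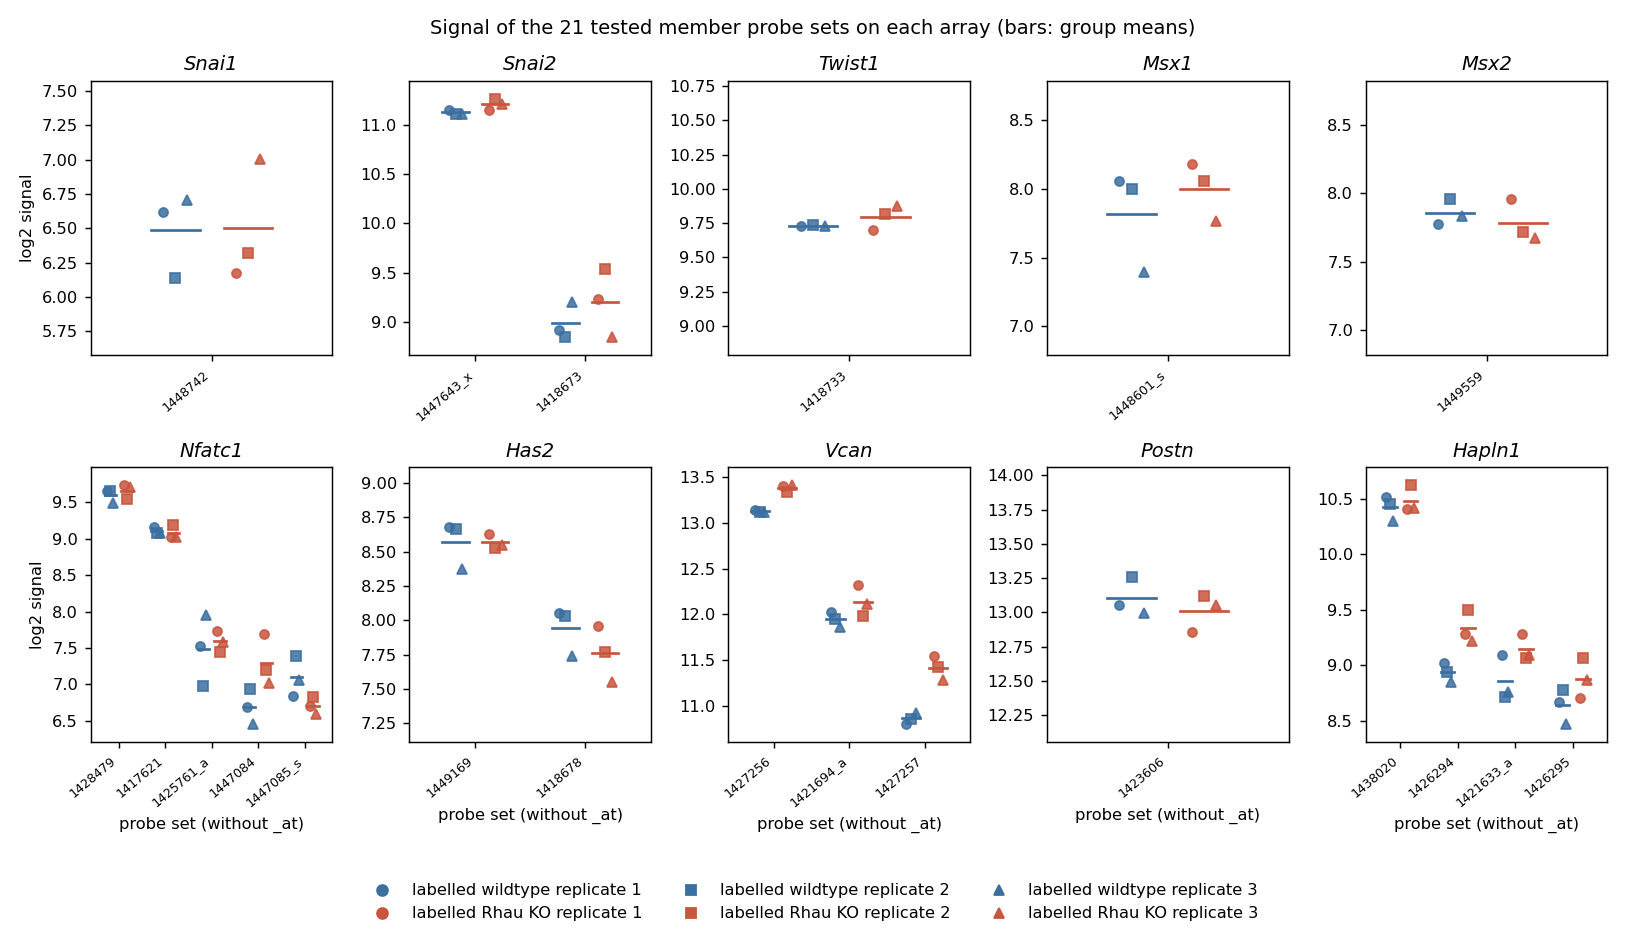
Log2 signal of the 21 tested probe sets on each of the 6 arrays, 1 panel per gene, with blue points for arrays labelled wildtype, red points for arrays labelled Rhau KO, a marker shape per replicate number and a bar at each group mean. The groups separate on Vcan 1427256_at (13.13 against 13.38) and 1427257_at (10.86 against 11.42) and on Hapln1 1426294_at (8.94 against 9.33), all called. Without a call they also separate on Snai2 1447643_x_at and Nfatc1 1447084_at (Rhau KO above) and on Nfatc1 1447085_s_at (Rhau KO below). They mix on both Has2 probe sets and on Postn, Twist1, Msx1, Msx2 and Snai1.

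Versican was the most clearly changed member. Probe set 1427257_at read 10.80, 10.86 and 10.92 in replicates 1 to 3 labelled wildtype and 11.55, 11.42 and 11.28 in those labelled Rhau KO. Every array labelled Rhau KO lay above every array labelled wildtype, with means of 11.42 ± 0.14 and 10.86 ± 0.06 (SD, n = 3 each). In fold terms the level was 1.47-fold higher, a difference of 0.55 (SE 0.07; adjusted p = 9.68e-04). Probe set 1427256_at, near the top of the signal range, read 13.14, 13.12 and 13.12 on wildtype-labelled arrays and 13.40, 13.33 and 13.41 under the Rhau KO label. The wildtype values spanned far less than the gap between groups, and the level was 1.19-fold higher, by 0.25 (SE 0.04; adjusted p = 0.00440). Saturation at this level was not tested. The remaining tested Vcan probe set, 1421694_a_at, read 12.03, 11.95 and 11.86 against 12.32, 11.98 and 12.11. Its groups overlapped, and the difference of 0.19 (95% interval 0.01 to 0.38) did not pass (adjusted p = 0.145), so the probe sets of one gene differed in size and in the call.

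Further Vcan probe sets, 5 in number, lay below the signal filter and were not tested. Probe sets 1433044_at, 1433043_at and 1447887_x_at had means of 5.47, 4.81 and 4.57 on wildtype-labelled arrays and 5.76, 4.91 and 4.99 under the Rhau KO label, with overlapping groups. Probe set 1447586_at scattered between 1.97 and 4.84 with no separation. Probe set 1459767_x_at went the other way, at 4.31, 4.64 and 5.26 against 1.90, 2.30 and 3.05. Its groups did not overlap, as held for 11.7% of all untested probe sets, and these signals are not told apart from background. The suffix x marks probes that can also match other transcripts. When all probe sets of the array were tested without a filter, none of the 5 passed, the lowest adjusted p being 0.0720. The call for 1427256_at was lost when each array was centred on its median (0.19, adjusted p = 0.0546), without a variance trend (adjusted p = 0.0705) and when the fit held Y-linked signal (0.26, adjusted p = 0.355). That for 1427257_at was lost with the Y-linked covariate alone among these settings (0.67, adjusted p = 0.129), where its SE rose from 0.07 to 0.16. Y-linked signal was higher on every array labelled Rhau KO than on every wildtype-labelled array. The fit with this covariate therefore cannot tell the label from Y-linked signal, and a call lost in it decides neither.

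Hapln1, the link protein that holds versican on hyaluronan, was called on 1 of its 4 probe sets. Probe set 1426294_at read 9.02, 8.94 and 8.85 on wildtype-labelled arrays and 9.28, 9.50 and 9.22 under the Rhau KO label. The groups did not overlap, and the level was 1.32-fold higher, by 0.40 (SE 0.10; adjusted p = 0.0240). Probe set 1421633_a_at read 9.10, 8.72 and 8.76 against 9.28, 9.06 and 9.09, a difference of 0.28 (adjusted p = 0.135). Here replicate 1 labelled wildtype lay above 2 of the arrays labelled Rhau KO. Probe set 1426295_at read 8.67, 8.78 and 8.47 against 8.70, 9.07 and 8.86, a difference of 0.24 (adjusted p = 0.222) with overlapping groups. The brightest, 1438020_at, read 10.52, 10.45 and 10.30 against 10.41, 10.62 and 10.41. These groups lay on top of each other, and the difference of 0.06 had a 95% interval of -0.12 to 0.24 (adjusted p = 0.705).

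The Hapln1 call was lost without replicate 2 or replicate 3 labelled wildtype (adjusted p = 0.0649 and 0.0804) and without replicate 2 labelled Rhau KO (0.31, adjusted p = 0.0800). It was also lost with median centring (0.33, adjusted p = 0.0557), without a variance trend (adjusted p = 0.0700) and with the Y-linked covariate (0.55, adjusted p = 0.338).

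**Figure D2:**
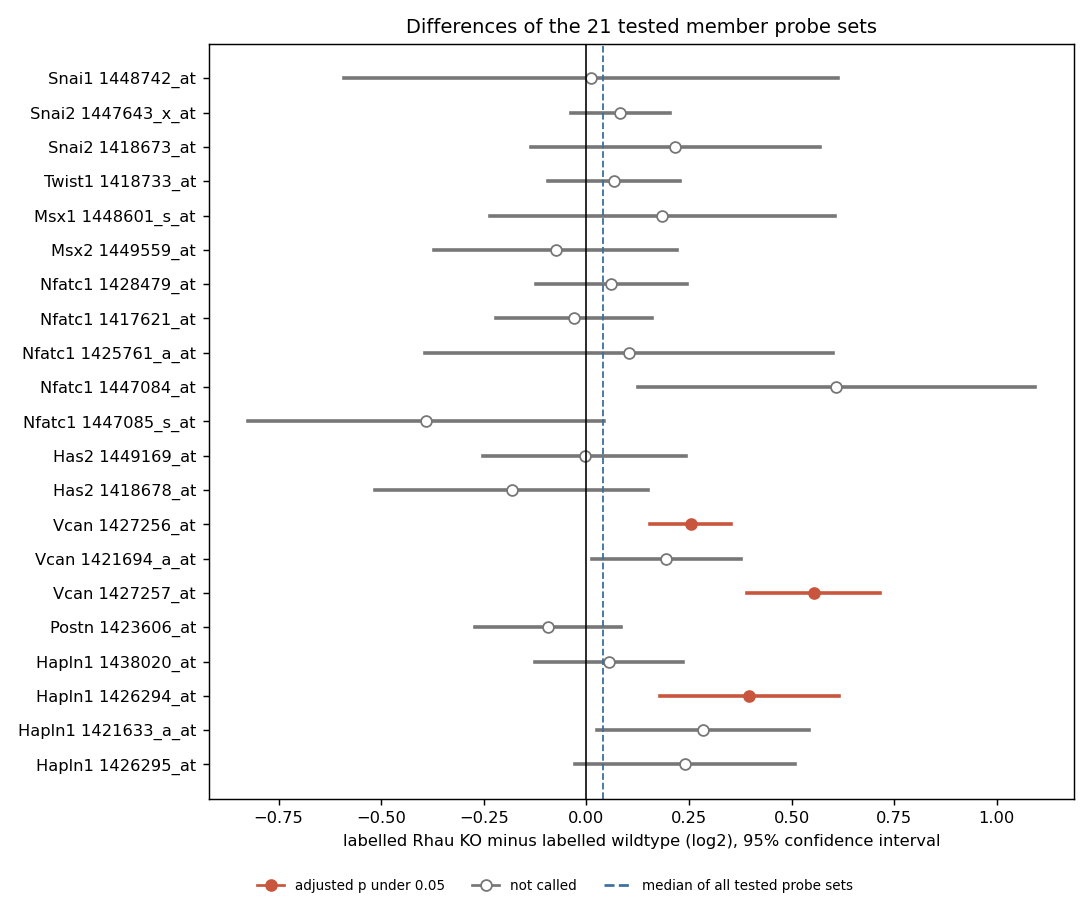
Difference between arrays labelled Rhau KO and labelled wildtype (log2, horizontal axis) with its 95% confidence interval for each of the 21 tested probe sets. The 3 filled points, 2 of Vcan at 0.25 and 0.55 and 1 of Hapln1 at 0.40, were called; the dashed line is the median of all tested probe sets, 0.04.

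Has2, the enzyme that makes the hyaluronan to which versican and the link protein bind, did not pass. Its probe set 1449169_at read 8.68, 8.67 and 8.37 on wildtype-labelled arrays and 8.63, 8.53 and 8.55 under the Rhau KO label. The difference was -0.0046 with a 95% interval of -0.25 to 0.24 (adjusted p = 0.985). Probe set 1418678_at read 8.06, 8.03 and 7.74 against 7.96, 7.77 and 7.55, a difference of -0.18 with an interval of -0.51 to 0.15 (adjusted p = 0.466). On both, replicate 3 was the lowest of the arrays labelled wildtype, and the groups overlapped. Postn, at 13.06, 13.26 and 13.00 against 12.86, 13.12 and 13.05, overlapped as well. Its single probe set differed by -0.09 (interval -0.27 to 0.09, adjusted p = 0.489), at a signal where saturation was not tested.

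The transcription factors that drive the change from endocardium to mesenchyme did not pass on any probe set. Snai1, a repressor of cadherin genes, read 6.62, 6.14 and 6.70 on wildtype-labelled arrays and 6.17, 6.32 and 7.01 under the Rhau KO label. The groups mixed, and the 95% interval of the difference, -0.59 to 0.61 around 0.01, was wide (adjusted p = 0.984). Snai2, its paralogue, was measured by 2 probe sets. Probe set 1447643_x_at, the brighter, has the suffix x, so its probes can also match other transcripts. It read 11.15, 11.11 and 11.11 against 11.15, 11.26 and 11.21, just without overlap (19.4% of all tested probe sets lay above in this way). The difference of 0.08 did not pass (adjusted p = 0.357). Probe set 1418673_at overlapped and differed by 0.22 (interval -0.13 to 0.57, adjusted p = 0.407). Twist1, a basic helix-loop-helix factor, read 9.73, 9.74 and 9.73 against 9.70, 9.82 and 9.87. The wildtype arrays agreed closely (SD 0.0045), and the interval of -0.09 to 0.23 around a difference of 0.07 was among the narrower ones (adjusted p = 0.594).

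The homeobox genes Msx1 and Msx2, which act downstream of BMP signals, each had 1 probe set above the filter. Msx1 1448601_s_at read 8.06, 8.00 and 7.39 on wildtype-labelled arrays and 8.18, 8.06 and 7.76 on Rhau KO arrays. The lowest array of each label was replicate 3 here, and the difference of 0.18 did not pass (interval -0.24 to 0.60, adjusted p = 0.570). Msx2 1449559_at read 7.78, 7.96 and 7.83 against 7.96, 7.72 and 7.67, a difference of -0.07 (interval -0.37 to 0.22, adjusted p = 0.762). Both genes also had a dim probe set that was not tested. That of Msx1 overlapped, with means of 5.54 and 5.60. That of Msx2, 1438351_at, read 3.84, 4.74 and 4.02 against 5.49, 5.15 and 4.99, without overlap but close to background, and had adjusted p = 0.303 when all probe sets were tested.

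Nfatc1, the calcineurin-regulated factor of valve endocardium, gave probe sets that pointed in opposite directions. The brighter pair did not separate the labels: 1428479_at differed by 0.06 (interval -0.12 to 0.24, adjusted p = 0.684) and 1417621_at by -0.03 (interval -0.22 to 0.16, adjusted p = 0.855). Probe set 1447084_at read 6.68, 6.93 and 6.46 on wildtype-labelled arrays and 7.69, 7.19 and 7.02 under the Rhau KO label, all higher. Probe set 1447085_s_at, annotated to the same sequence record, read 6.84, 7.39 and 7.06 against 6.70, 6.82 and 6.59, all lower. Neither passed, at 0.61 (SE 0.22, adjusted p = 0.0929) and -0.39 (SE 0.20, adjusted p = 0.219), and neither was called under any alternative run. The fifth, 1425761_a_at, scattered between 6.97 and 7.96 in the wildtype arrays and differed by 0.10 (adjusted p = 0.804). Nfatc1 values are thus given per probe set, without a direction for the gene.

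Other genes of cushion formation were read on the brightest probe set of each gene, where 16.5% of 12416 tested genes were called, 6.77% as higher and 9.75% as lower. The lists here and below were also chosen with earlier results known, so their counts are not independent of these data. Of the genes named from these lists, Tbx3, Hbb-bh1 and Epcam were read on probe sets with the suffix x, which can also match other transcripts. Values of further probe sets of the listed genes are not given. These arrays are of whole hearts, where fewer cells of a type and less RNA per cell cannot be told apart. Of 16 measured genes that make, bind or cut hyaluronan and proteoglycans, 11 were tested, 2 rose and 1 fell. Cd44, a hyaluronan receptor, read 10.73, 10.71 and 10.34 against 11.00, 11.06 and 11.09, a difference of 0.46 (adjusted p = 0.0107). Adamts1, a protease that cleaves versican, rose by 0.31 (adjusted p = 0.0113). Ugdh, which makes the glucuronate precursor of hyaluronan, fell by 0.37 with adjusted p = 0.00256, from 11.57 ± 0.01 to 11.20 ± 0.09 (SD, n = 3 each). The other hyaluronan synthases, Has1 and Has3, lay below the filter, and the median of the tested list was 0.06 beside 0.01 over all tested genes.

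Among 26 inducing ligands and receptors 4 rose, 2 fell and 20 did not pass (median 0.02). Tgfbr3, the TGF-beta coreceptor of cushion endocardium, and Tgfbr2 were at 0.60 and 0.27, and the myocardial ligand gene Bmp2 was at 0.38, whereas Bmp4 was at -0.49. Of 25 other transcription factors of cushions and valves 2 rose and 7 fell (median -0.05), led by Hey2 (-1.32), Gata5 (-0.49), Tbx3 (-0.46) and Smad4 (-0.44). Matrix genes had 3 higher and 4 lower of 22 (median 0.03). Col2a1, a fibrillar collagen of cartilage that valve mesenchyme can also make, was 4.18-fold higher, and the small leucine-rich protein gene Ogn stood at 0.33, while biglycan, Bgn, fell by 0.42 and Col6a1 fell by 0.37.

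Around Nfatc1, 3 of 12 calcineurin and NFAT genes rose and 2 fell (median 0.02). Rcan1, a calcineurin inhibitor and known NFAT target, read 11.47, 11.33 and 11.36 against 12.06, 11.95 and 12.06, a 1.56-fold higher level with adjusted p = 1.12e-04. Its paralogue Rcan2 fell by 0.59, and the family members Nfatc2 and Nfat5 were higher by 0.47 and 0.36. Of 11 adhesion genes of the endothelial to mesenchymal change 2 rose and 2 fell (median -0.0078). Of the cadherin genes in this list Cdh5 rose by 0.50 and Cdh2 by 0.34, while Cdh11 did not pass (0.16, adjusted p = 0.0762). The integrin genes Itgav and Itgb5 fell by 0.45 and 0.35.

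**Figure D3:**
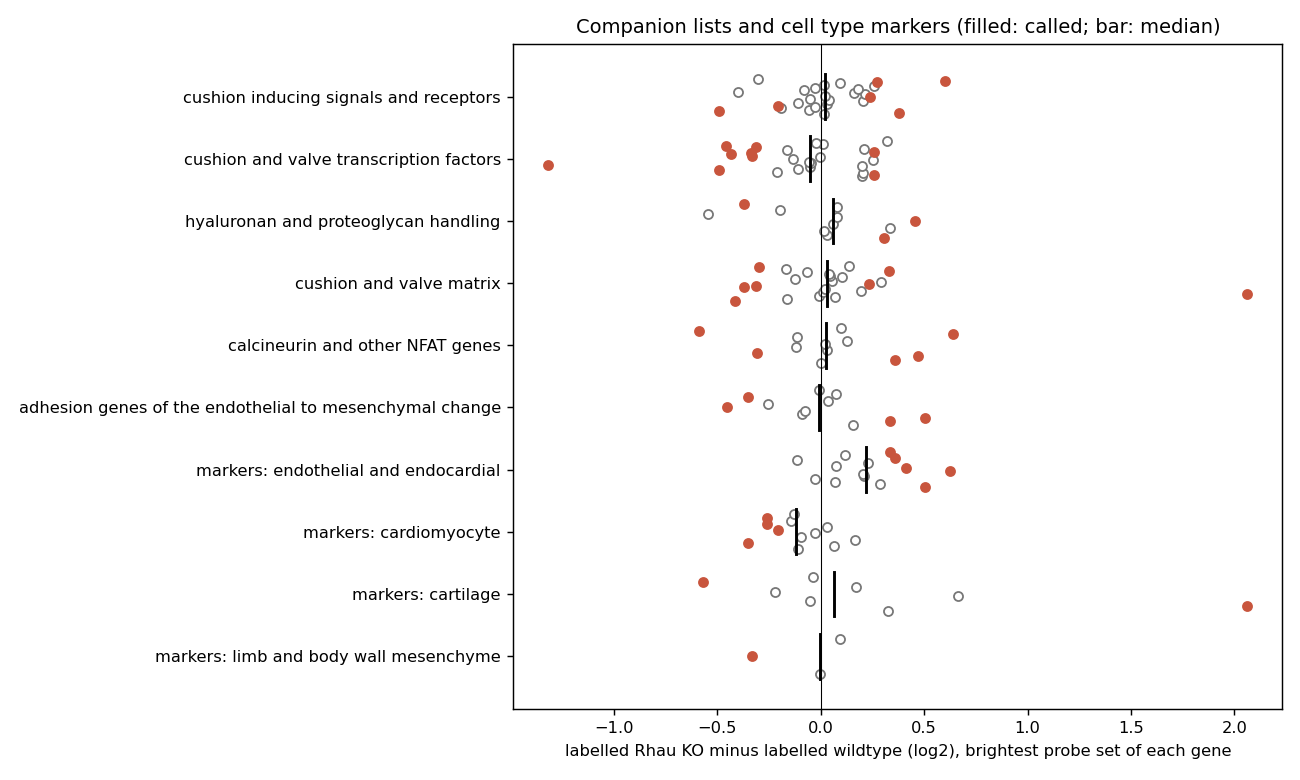
Difference between arrays labelled Rhau KO and labelled wildtype (log2, horizontal axis) for the brightest tested probe set of each gene in 6 companion lists and 4 marker lists, with filled points for called genes and a black bar at each list's median. Called genes lie on both sides of 0 in each companion list, while the endothelial list is shifted to the right (median 0.22) and the cardiomyocyte list to the left (median -0.12).

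Markers of other cells moved beside these values. Endothelial and endocardial markers had 5 higher and 0 lower of 14 (median 0.22), with a summed linear signal of 18031 to 19619 under the Rhau KO label and 15899 to 16783 under the wildtype label. Npr3, Cdh5, Kdr and Sox18 were at 0.41, 0.50, 0.63 and 0.36. Cardiomyocyte markers had 0 higher and 4 lower of 12 (median -0.12), with Myh6 at -0.35, and summed to between 255650 and 298032 against 294658 to 305225. Erythroid markers had 7 lower of 10 (median -0.89), summing to between 73519 and 92393 against 97692 to 104760, and epicardial markers 1 lower of 10, Krt8 at -0.55, summing to between 12525 and 13656 against 13526 to 15121. Macrophage markers had 2 higher of 10, Lyz2 at 2.98 and Mrc1 at 0.43 (median 0.27), with sums of 4166 to 5038 against 3065 to 3358. Without Lyz2 the macrophage sums overlapped, at 3047 to 3690 against 2900 to 3200. Neural crest and neuronal markers had 3 higher of 5 tested, led by Ednrb at 0.78, while Sox10 (0.04) and Tubb3 (-0.38) did not pass. This list summed to between 4625 and 4789 against 2988 to 3110, and to between 1037 and 1139 against 917 to 998 without Ednrb. Leaving out the gene of largest change in linear signal, a step chosen after the values were seen, kept the groups apart for the endothelial sum (15595 to 16869 against 13991 to 14826, without Npr3) and the erythroid sum (56444 to 69887 against 70620 to 74544, without Hbb-bh1).

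Hapln1 and Vcan are also made in cartilage and body wall mesenchyme, so markers of those tissues were read as well. Of 11 cartilage markers 8 were tested, with Col2a1 higher and Sox5 lower, and a median of 0.07. The summed signal of all 11 was 4885 to 5583 under the Rhau KO label and 4247 to 4589 under the wildtype label, but without Col2a1 it was 3827 to 4139 against 4042 to 4338, with overlap. Only 3 of 12 limb and body wall markers lay above the filter, of which Prrx2 was lower by a difference of -0.33 (median -0.0037). The sums over all 12 were 1730 to 1843 against 1993 to 2052, and without Prrx2 they overlapped, at 757 to 905 against 741 to 896. Liver, lung and gut markers had 4 of 11 tested and 0 called, Ttr at -0.41 and Epcam at -0.74, summing to between 541 and 727 against 726 to 779. None of the listed markers was at 0 on any array. The part of any of these cell types in the Vcan and Hapln1 differences was not tested.

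**Figure D4:**
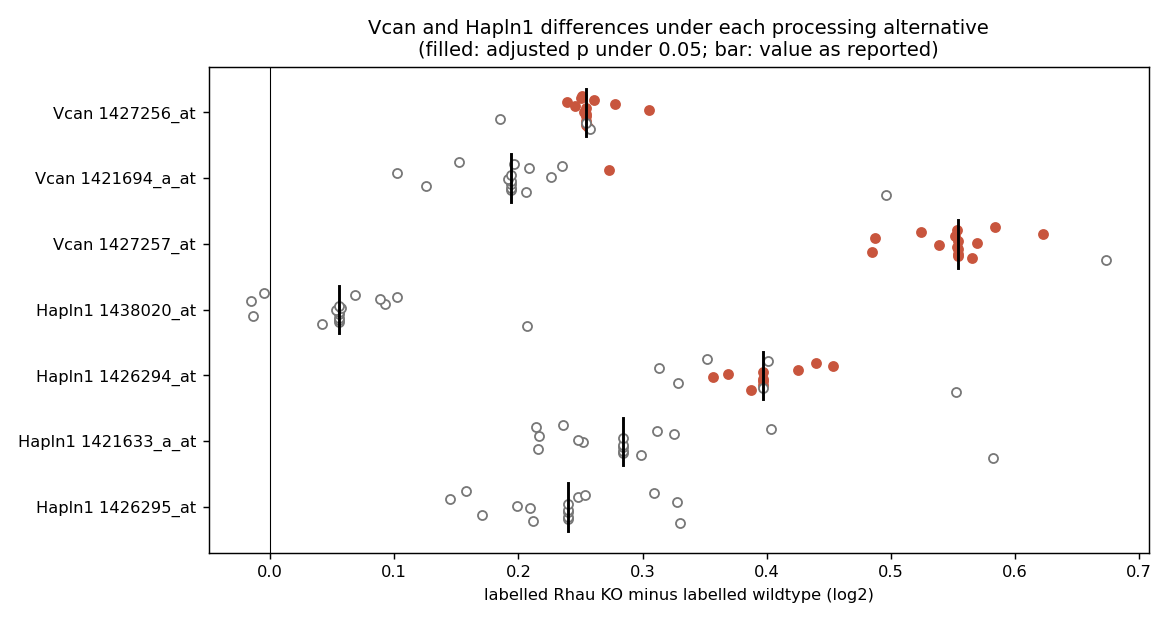
Difference (log2, horizontal axis) of the 7 tested Vcan and Hapln1 probe sets under each processing alternative run on probe sets, with filled points where adjusted p was under 0.05 and a black bar at the value as reported. Vcan 1427257_at stayed between 0.48 and 0.67 and Hapln1 1426294_at between 0.31 and 0.55, whereas Hapln1 1438020_at crossed 0.

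Lowest values were also counted by array, over probe sets of which some read the same gene. Replicate 3 labelled wildtype held the lowest value for 8 of the 21 tested probe sets, while it was lowest for 18.5% of all tested probe sets. These 8 belong to Msx1, Nfatc1, Has2, Vcan and Hapln1 only, so they are not independent members. Replicate 2 labelled Rhau KO was lowest for 0 of the 21 against 17.0%. Among the brightest probe sets of the members Snai1 varied most over the 6 arrays (SD 0.34). The genes nearest to its profile, by Euclidean distance between mean-centred log2 values among 12415 other genes, were 9330159M07Rik, AI504432 and Chrnb2, at distances of 0.26, 0.30 and 0.31. Snai1 was also the dimmest of these probe sets (mean 6.49), and its groups overlapped. Nearest profiles exist for any gene, and a relation of these genes to Snai1 was not tested.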

How the data were processed

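The deposited table holds 1 log2 signal per probe set and array, made by the authors with MAS5 (version not stated), per the submitters' processing notes. Its linear 2% trimmed mean was 500 on all 6 arrays, and values were used as deposited. All 6 columns matched a sample. Control probe sets (64 of 45101) were dropped. Genes were named through the platform annotation, by which 34945 probe sets carry a single symbol. Probe sets in the lowest 40% by mean signal were not tested. The remaining 27022 were fitted with limma 3.58.1 in R 4.3.3 (lmFit, eBayes with trend), two-sided, Benjamini-Hochberg over all, threshold 0.05; every adjusted p is limma's. The procedure was tested on simulated arrays. Members and lists were chosen with earlier results of these data known. All member probe sets are named, and in each companion or marker list up to 4 called genes of largest change or, with none called, the 2 brightest. Cdh11, Sox10, Tubb3, Has1 and Has3 are named outside this rule. Y-linked signal is the mean of Eif2s3y, Kdm5d and Uty. Same-numbered arrays were not paired (deviation correlations -0.00028 to 0.042). No 2 arrays held the same values. Tables and plots used Python 3.11.15, pandas 2.3.3 and matplotlib 3.10.9.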

Additional observations from a re-analysis of the deposited data

How the results depend on the processing

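Member probe sets called higher numbered 3 as reported and 2 to 3 when 1 array was left out; 1 was left with median centring, 1 without a variance trend, 1 with the brightest probe set per gene, 0 with all probe sets of a gene averaged and 0 with the Y-linked covariate. No member was called lower in any setting. Over all probe sets the higher and lower counts were 1824 and 1858, and 1046 to 1283 and 1139 to 1574 when 1 array was left out. Median centring gave 1007 higher and 2528 lower, so that 28.5% of calls were higher instead of 49.5%. The counts were 886 and 903 without a variance trend, 1018 and 1336 with the brightest probe set per gene (fewer features tested), 608 and 824 with averaged probe sets and 28 and 110 with the covariate. Y-linked signal separated the labels, so the covariate fit cannot tell one from the other. Except as stated, the cause of these shifts was not tested.

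Of 359 member values under alternatives, 325 kept sign and call, 10 lost a call, 1 gained it (Vcan 1421694_a_at, 0.27 without replicate 2 labelled Rhau KO) and 23 changed sign, 22 of them of probe sets without a call. The called one was Vcan 1427256_at, at -0.15 when the untested dim probe sets entered the gene's mean; Msx2 stood at 0.47 for the same reason. Median centring put Snai1 at -0.058, Twist1 at -0.0025, Nfatc1 1428479_at at -0.0090 and Hapln1 1438020_at at -0.014, and quantile normalization put Snai1 at -0.047. With the covariate Has2 stood at 0.41 and 0.35, Twist1 at -0.061, Nfatc1 1425761_a_at at -0.43, Snai1 at -0.91 and Msx2 at 0.18. When 1 array was left out, differences spanned 0 for Has2 1449169_at (-0.11 to 0.049), Nfatc1 1425761_a_at (-0.15 to 0.34), Snai1 (-0.24 to 0.18), Hapln1 1438020_at (-0.015 to 0.10) and Msx1 (-0.029 to 0.31).

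With the replicate block 1684 probe sets were higher and 1760 lower, and the same 3 member probe sets were called. The numbers do not pair the arrays, and not every array correlated best with its own number.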
